A study of Homo sapiens with 6 samples.

Results

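The human HOX genes were examined in LNCaP prostate cancer cells with and without knockdown of MEP50. A gene was taken as a member when its name in the deposited table was HOX followed by a cluster letter from A to D and a number, and when it lay on an assembled chromosome. This gave 39 genes of the 63299 in the table, 11 in HOXA on chromosome 7, 10 in HOXB on chromosome 17, 9 in HOXC on chromosome 12 and 9 in HOXD on chromosome 2. RNA sequencing libraries came from 3 samples of LNCaP cells labelled MEP50 KD (Dox+), called knockdown here, and from 3 samples of the same line labelled No KD (Dox-), called control. The design text of the series names the 3 samples of a group biological replicates. LNCaP is an established line from a prostate carcinoma that responds to androgen, and it is the background that both groups share. The labels give neither the knockdown construct, nor whether the line was 1 clone, nor the dose and time of doxycycline. No library had doxycycline without the knockdown, so effects of the drug and of the loss of MEP50 cannot be told apart.

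HOX proteins are homeodomain transcription factors that set regional identity along the body axis. Their genes stand side by side in clusters, and their order along the chromosome follows the order in which they are used from head to tail, with the highest paralog numbers used last and furthest back. Polycomb complexes keep HOX genes silent, complexes of the trithorax type with KMT2A and menin keep them active, and cofactors of the PBX and MEIS families help HOX proteins bind DNA. HOXB13 is the HOX gene best known in the prostate, whose luminal cells express it. MEP50, the product of WDR77, is the partner of PRMT5, an enzyme that dimethylates arginines in histones and in splicing proteins.

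The promoters of HOXA6 and HOXA10, which fell in knockdown libraries, are shown first, with those of HOXA9, which lies between them, of HOXA11, on the far side of HOXA10, and of HOXC4, the gene with the highest fitted log2 fold change among the members. RefSeq promoter windows (build GRCh38.p14, 250 bases before to 50 bases after an annotated start, 300 bases in all) were found for 20 of the 39 genes, in 27 entries. An annotated start need not be the one used in these cells. Each is printed 5′ to 3′ on the strand of the gene. Capitals mark every match, on either strand, of 5 words: TATAAA (the TATA box), CCAAT (the CCAAT box), CAATAAA (a word of posterior HOX proteins), TGATNNAT (a word of PBX with HOX) and AGGTCA (the core word of nuclear receptors). CCAAT and CAATAAA can share bases, and a match on the other strand reads as its reverse complement.
HOXA6, chr7:27147725-27148024, minus strand: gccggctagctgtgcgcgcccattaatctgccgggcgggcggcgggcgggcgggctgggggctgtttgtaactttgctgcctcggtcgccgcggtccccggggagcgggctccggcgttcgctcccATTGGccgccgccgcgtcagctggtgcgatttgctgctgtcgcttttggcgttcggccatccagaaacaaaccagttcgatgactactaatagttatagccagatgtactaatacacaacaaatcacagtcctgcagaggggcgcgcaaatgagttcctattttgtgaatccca
HOXA9, chr7:27165488-27165787, minus strand: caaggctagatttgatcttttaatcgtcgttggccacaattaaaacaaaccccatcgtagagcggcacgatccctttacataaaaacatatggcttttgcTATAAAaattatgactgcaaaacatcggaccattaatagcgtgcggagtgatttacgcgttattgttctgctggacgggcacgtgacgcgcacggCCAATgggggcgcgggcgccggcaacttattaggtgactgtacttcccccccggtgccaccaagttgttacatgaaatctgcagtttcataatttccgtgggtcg
HOXA10, upstream start, chr7:27179812-27180111, minus strand: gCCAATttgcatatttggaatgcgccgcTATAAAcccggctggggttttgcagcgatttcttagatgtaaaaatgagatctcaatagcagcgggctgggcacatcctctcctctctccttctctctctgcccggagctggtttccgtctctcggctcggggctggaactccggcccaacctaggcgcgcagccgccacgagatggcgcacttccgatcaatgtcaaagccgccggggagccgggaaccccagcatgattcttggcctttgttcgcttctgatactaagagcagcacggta
HOXA10, downstream start, chr7:27174271-27174570, minus strand: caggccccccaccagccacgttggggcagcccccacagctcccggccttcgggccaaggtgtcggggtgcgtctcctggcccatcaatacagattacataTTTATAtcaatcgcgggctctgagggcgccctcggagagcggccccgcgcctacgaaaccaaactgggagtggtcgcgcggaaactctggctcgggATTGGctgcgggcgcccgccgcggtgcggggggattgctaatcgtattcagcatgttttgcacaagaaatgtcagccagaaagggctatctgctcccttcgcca
HOXA11, chr7:27185183-27185482, minus strand: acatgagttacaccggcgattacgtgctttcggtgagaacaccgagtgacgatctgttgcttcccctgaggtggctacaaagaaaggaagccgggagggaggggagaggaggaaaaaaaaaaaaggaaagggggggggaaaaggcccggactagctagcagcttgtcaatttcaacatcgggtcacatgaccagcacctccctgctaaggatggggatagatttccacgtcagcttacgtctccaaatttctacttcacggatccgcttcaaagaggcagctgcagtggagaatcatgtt
HOXC4, chr12:54016638-54016937, plus strand: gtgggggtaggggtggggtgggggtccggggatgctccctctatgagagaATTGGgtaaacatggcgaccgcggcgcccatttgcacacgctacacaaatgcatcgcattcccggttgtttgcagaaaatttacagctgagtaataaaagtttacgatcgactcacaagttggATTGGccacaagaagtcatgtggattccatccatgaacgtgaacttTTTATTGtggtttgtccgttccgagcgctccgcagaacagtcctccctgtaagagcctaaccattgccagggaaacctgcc

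HOXA6 held CCAAT once, on the reverse strand, starting 124 bases before the annotated start. HOXA9 held TATAAA 150 and CCAAT 55 bases before it, both forward. The upstream HOXA10 window held the same words at 222 and 249 bases, forward, and the downstream HOXA10 window held them on the reverse strand at 150 and 54 bases. The HOXA11 window held none of the 5 words. HOXC4, whose window is also the entry of HOXC5, held CCAAT 200 and 77 bases and CAATAAA 31 bases before the start, all on the reverse strand. Each of these words in the HOXA6 and HOXA10 windows was also in that of HOXA9, a gene with at most 7 reads in a library.

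Of the 26 distinct HOX windows, 17 held CCAAT (65.4%), against 34.6% of all 35116 promoter windows. TATAAA was in 5 (19.2%, against 11.5%), CAATAAA in 3 (11.5%, against 4%) and TGATNNAT in 3 (11.5%, against 7.4%). HOXA3, with several annotated starts, gave more of these windows than any other gene. CAATAAA was only in windows of HOXA3 and in the window shared by HOXC4 and HOXC5. No window was found for HOXA5, HOXC6 or HOXB13, so the shares do not cover all HOX genes. AGGTCA was in 0 of 26, against 13.8%. The GC content of the HOX windows was close to that of all promoters, with medians of 58% and 58.7%. The ratio of observed to expected CpG was higher, with a median of 0.849 over the 27 HOX entries against 0.579 over all promoters. These shares are descriptions of the letters in the windows and say nothing of which factors were bound.

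The libraries held 18568002 to 36001219 counts on genes in the knockdown group and 27509105 to 36234784 in the control group. Levels below are CPM, counts scaled to the effective library total in the usual way, and levels of different genes are compared only as CPM per kilobase of the gene length in the deposited table. WDR77, the targeted gene, had 15.0, 14.0 and 12.7 CPM in the knockdown libraries and 49.3, 47.2 and 36.7 CPM in the control libraries, so the labels matched its level. All 8 luminal prostate markers were above 1 CPM, and their summed level was 3540 to 4040 CPM in knockdown libraries and 6240 to 7670 CPM in control libraries. The summed levels of 4 basal markers were 0.0541 to 0.412 CPM in knockdown libraries and 0.899 to 1.28 CPM in control libraries, with KRT5 at 0 in every library. The 5 neuroendocrine markers summed to 13 to 22.1 CPM in knockdown libraries and 23 to 32 CPM in control libraries, mostly from ENO2. The 4 fibroblast markers summed to 9.46 to 12.6 CPM in knockdown libraries and 5.43 to 14.4 CPM in control libraries, mostly from COL1A1, and the 4 leukocyte markers to 0.366 to 0.857 CPM in knockdown libraries and 0.599 to 1.4 CPM in control libraries. Luminal, basal and neuroendocrine marker sums thus differed between the groups without overlap, and their part in the HOX results was not tested. The 4 basal markers each had a mean under 1 CPM. The neuroendocrine sums were only narrowly apart, and ENO2 alone overlapped, with 20.0 CPM in knockdown replicate 1 and 19.7 CPM in control replicate 2.

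LNCaP cells read 11 of the 39 HOX genes at a mean of at least 1 CPM over the 6 libraries, called expressed here. These were HOXA5, HOXA6 and HOXA10, then HOXB3, HOXB6, HOXB9 and HOXB13, then HOXC6, HOXC9, HOXC12 and HOXC13. Another 4, among them HOXA11, HOXB5 and HOXC4, were below 1 CPM but passed the filter on low counts, so 15 genes could be tested. Another 20 had reads but did not pass, with at most 17 reads in any library, and 4 had no read in any library. No HOXD gene was expressed. The mean pools both groups. HOXA5 and HOXA6 averaged 0.463 and 0.375 CPM in knockdown libraries alone, and HOXC4 averaged 1.18 CPM there and 0.616 CPM in control libraries.

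**Figure D1:**
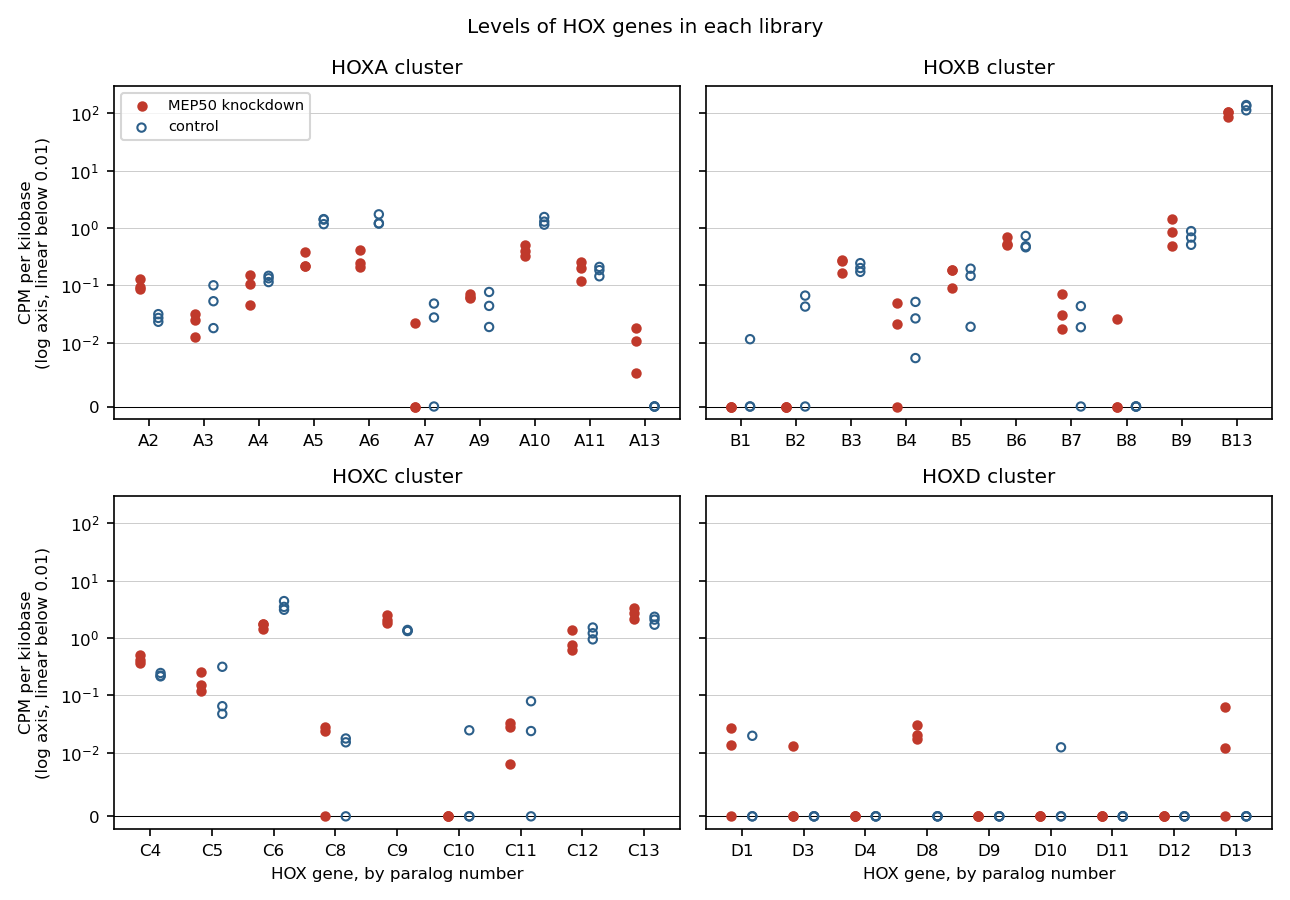
Level of HOX genes in each library, as CPM per kilobase on a log axis that is linear below 0.01, with 1 panel per cluster and the genes by paralog number. Filled red points are the 3 knockdown libraries and open blue points the 3 control libraries. HOXB13 stands near 100 in all 6 libraries while no HOXD gene reaches 1, and HOXA5, HOXA6, HOXA10 and HOXC6 have their red points below their blue ones.

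The expressed genes were scattered along their clusters. Between HOXA6 and HOXA10 stood HOXA7, with at most 3 reads, and HOXA9, with at most 7 reads in a library. Of their exon bases, 62.5% in HOXA7 and 27% in HOXA9 are shared with other transcripts on one or the other strand. Whether the counting used strand is not given, so reads on these shared bases cannot be told apart. Between HOXC9 and HOXC12 stood HOXC10 and HOXC11, with at most 2 and 9 reads. HOXB13 stood far above its paralogs: HOXC13 was expressed, HOXA13 had 1, 1 and 2 reads in the knockdown libraries and 0 in each control library, and HOXD13 had 0, 1 and 3 reads in the knockdown libraries and 0 in each control library.

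HOXB13 (ENSG00000159184.7, hg38 chr17:48724763-48729178, minus strand) gave 91.7% ± 0.0618 of all HOX reads in the knockdown libraries and 91.5% ± 1.21 in the control libraries (SD, n = 3 each). Its level was 99.3 ± 11.5 CPM per kilobase in knockdown libraries and 129 ± 14.2 in control libraries. This placed it above 98.3% to 98.8% of the 21101 tested genes in the knockdown libraries and above 98.4% to 99% in the control libraries. The next gene in control, HOXC6, had 1.65 ± 0.177 CPM per kilobase in knockdown and 3.65 ± 0.662 in control.

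In control libraries the order per kilobase after HOXB13 was HOXC6, HOXC13 at 2.04 ± 0.322, and then a group of 5 genes, HOXA6, HOXC9, HOXA5, HOXA10 and HOXC12, from 1.38 to 1.22 CPM per kilobase. Neighbours within that group of 5 differed by less than the larger of their SDs. In knockdown libraries HOXC13 (2.71 ± 0.592) and HOXC9 (2.14 ± 0.347) stood next to HOXB13, and HOXC6 came after them. HOXA10, HOXA6 and HOXA5 ranked 9, 10 and 11 of the 15 tested genes, at 0.409 ± 0.0925, 0.292 ± 0.11 and 0.271 ± 0.0941 CPM per kilobase. HOXB9, HOXC12, HOXB6 and HOXC4 stood above them in knockdown. The lowest tested gene in both groups was HOXB5, at 0.153 ± 0.0547 in knockdown and 0.121 ± 0.0913 in control.

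Knockdown of MEP50 was then compared with control, gene by gene, to ask which HOX genes change. Of the 15 tested, 4 fell at an adjusted p under 0.05 in edgeR's quasi-likelihood test: HOXA5, HOXA6, HOXA10 and HOXC6. Over all tested genes, 4.88% were called lower. None of the 15 was called higher by edgeR, DESeq2 or limma-voom, while edgeR called 2.72% of all tested genes higher. At an unadjusted p under 0.05 in edgeR, 7 of the 15 differed in either direction, against 24.7% of all tested genes. The median log2 fold change of the 15 was 0.06, and that of all tested genes was 0.0023. The 15 are the better-read members and not all 39, and HOXA6 passed the filter through its control libraries. In such bulk samples, fewer cells that express a gene and less RNA per cell cannot be told apart. The labels do not say that the replicate numbers pair the libraries, but libraries of the same number deviated together from their group means. Each gene was therefore also fitted with these numbers taken as pairs, in a block. There 5 fell, the same 4 and HOXB13, and 2 rose, HOXC4 and HOXC9. That fit called 14.9% of all tested genes lower and 11.2% higher. The ranges of the 3 knockdown and 3 control libraries did not overlap for these same 5 lower and 2 higher genes, which 17.0% of all tested genes did in the lower and 13.4% in the higher direction.

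**Figure D2:**
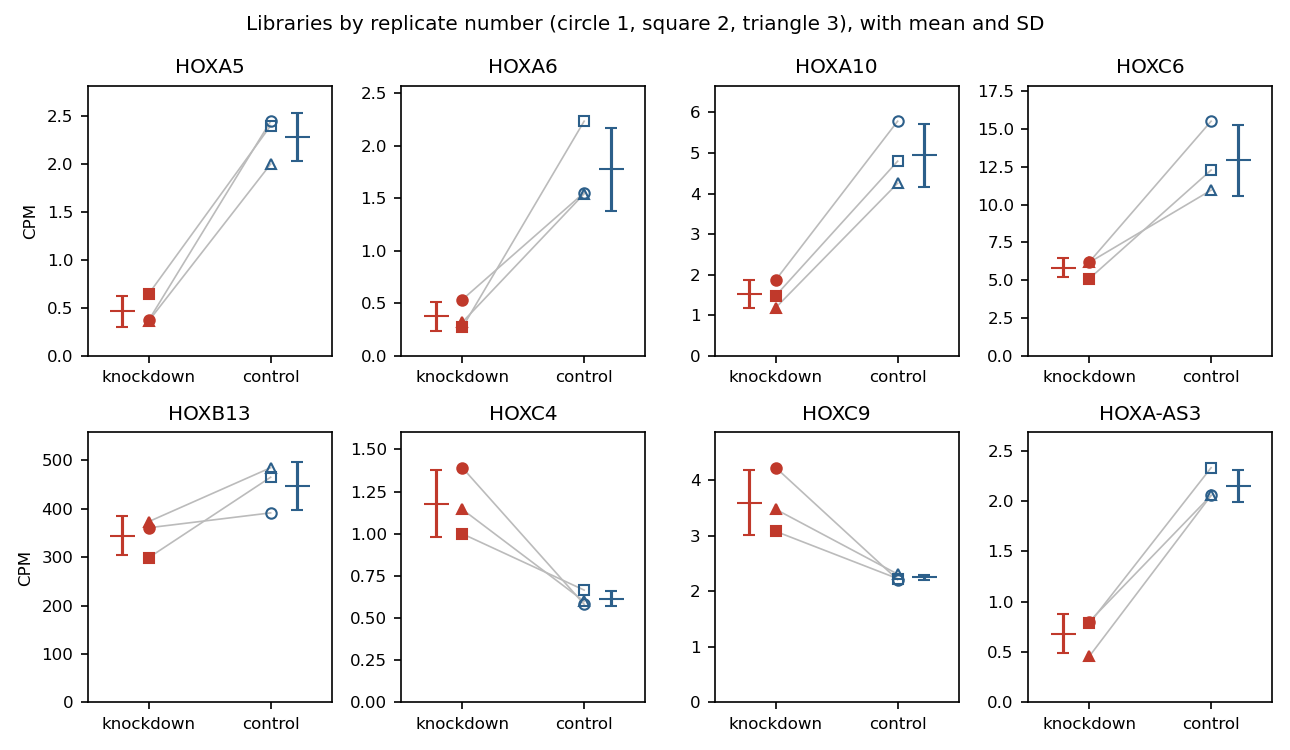
CPM in each library for 7 HOX genes and the antisense RNA HOXA-AS3, with knockdown left and control right on axes that start at 0. Circles, squares and triangles are replicates 1, 2 and 3, grey lines join libraries of the same number, and the bars beside them are mean and SD. HOXA5, HOXA6, HOXA10, HOXC6, HOXB13 and HOXA-AS3 are lower in every knockdown library than in any control library, and HOXC4 and HOXC9 are higher.

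The HOXA cluster held the steepest falls, and only in the middle of the cluster among the genes that could be tested. HOXA5 (ENSG00000106004.4, chr7:27141052-27143668, minus strand) acts in lung and neck patterning in the mouse. It had 0.375, 0.649 and 0.366 CPM in the knockdown libraries, from 7, 24 and 8 reads, and 2.44, 2.40 and 2.00 CPM in the control libraries, from 63, 72 and 70 reads. The groups did not overlap, and the control libraries lay close together. HOXA5 was 4.69-fold lower, a log2 fold change of -2.23 (SE 0.31, 95% interval -2.94 to -1.52, adjusted p 0.00535, edgeR). By pair, the log2 ratio of knockdown to control was -2.71, -1.89 and -2.45 for replicates 1, 2 and 3. None of its exon bases in the deposited table is shared with another gene.

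HOXA6 (ENSG00000106006.6, chr7:27145396-27150603, minus strand), the next gene along, had 0.536, 0.270 and 0.321 CPM in the knockdown libraries, from 10, 10 and 7 reads. In control it had 1.55, 2.23 and 1.54 CPM, from 40, 67 and 54 reads. Every knockdown library was below every control library. The gene was 4.88-fold lower, with a log2 fold change of -2.29 (SE 0.36, interval -3.09 to -1.48, adjusted p 0.008, edgeR), and the pairs gave log2 ratios of -1.54, -3.05 and -2.27. Of its exon bases, 39.3% lie opposite HOXA-AS3 and 4.44% are shared with another transcript on its own strand. Whether the counting used strand is not given in the sources used here, so reads on the shared bases cannot be told apart.

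HOXA10 (ENSG00000253293.4, chr7:27170591-27180261, minus strand), known for its part in forming the uterus, was the best-read gene of its cluster. It had 1.87, 1.49 and 1.19 CPM in the knockdown libraries, from 35, 55 and 26 reads, and 5.78, 4.80 and 4.25 CPM in the control libraries, from 149, 144 and 149 reads. In both groups replicate 1 was highest and replicate 3 lowest, and the groups were far apart. The gene was 3.26-fold lower, with a log2 fold change of -1.71 (SE 0.25, interval -2.28 to -1.14, adjusted p 0.00616, edgeR) and nearly equal log2 ratios in the pairs of -1.63, -1.69 and -1.84. It shares 16.4% of its exon bases with HOXA10-AS on the other strand and 9.93% with the readthrough transcript HOXA10-HOXA9 on its own.

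On the HOXA13 side of these genes no fall was called. HOXA11, which acts in kidney and limb development in the mouse and lies on the far side of HOXA10, had 0.589, 0.270 and 0.458 CPM in the knockdown libraries and 0.427, 0.333 and 0.485 CPM in the control libraries, and the groups overlapped. Its log2 fold change was 0.01 (interval -0.95 to 0.98, adjusted p 0.992), so a change of 1 log2 unit either way lay only just outside the interval. It was read at 10 to 17 reads per library, which gives a wide interval. HOXA11-AS lies opposite 30.6% of its exon bases, and without the strand setting reads on them cannot be told apart.

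Among the HOXA genes under the filter, HOXA2, which sets the identity of the second pharyngeal arch in the mouse, had 4, 12 and 5 reads in the knockdown libraries and 2 in each control library. Its level was 0.256 ± 0.0598 CPM in knockdown and 0.0671 ± 0.0103 CPM in control, without overlap. HOXA3 had 1, 4 and 3 reads in knockdown and 2, 13 and 8 in control. HOXA4, the neighbour of HOXA5, had 5, 3 and 4 reads in knockdown and 6, 6 and 9 in control, and 47.3% of its exon bases are shared with other transcripts. These genes were too thinly read to be tested, so the fall of HOXA5 and HOXA6 cannot be followed into HOXA3, HOXA4 or HOXA7. HOXA7 had 1, 0 and 0 reads in knockdown and 3, 2 and 0 in control, and HOXA9, which lies between HOXA6 and HOXA10, had 4, 7 and 4 in knockdown and 6, 4 and 2 in control.

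Summed over the cluster, HOXA had 4.20 ± 0.729 CPM in knockdown libraries and 10.6 ± 1.16 CPM in control libraries, a log2 ratio of -1.33. The sum of HOXA5, HOXA6 and HOXA10 alone was 2.36 ± 0.456 CPM in knockdown and 8.999 ± 1.06 CPM in control. The other 8 genes together had 1.85 ± 0.511 CPM in knockdown and 1.57 ± 0.101 CPM in control, a difference within the spread of the knockdown libraries. The fall of the cluster sum was thus that of 3 genes, which were set apart because they were called lower in these data.

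**Figure D3:**
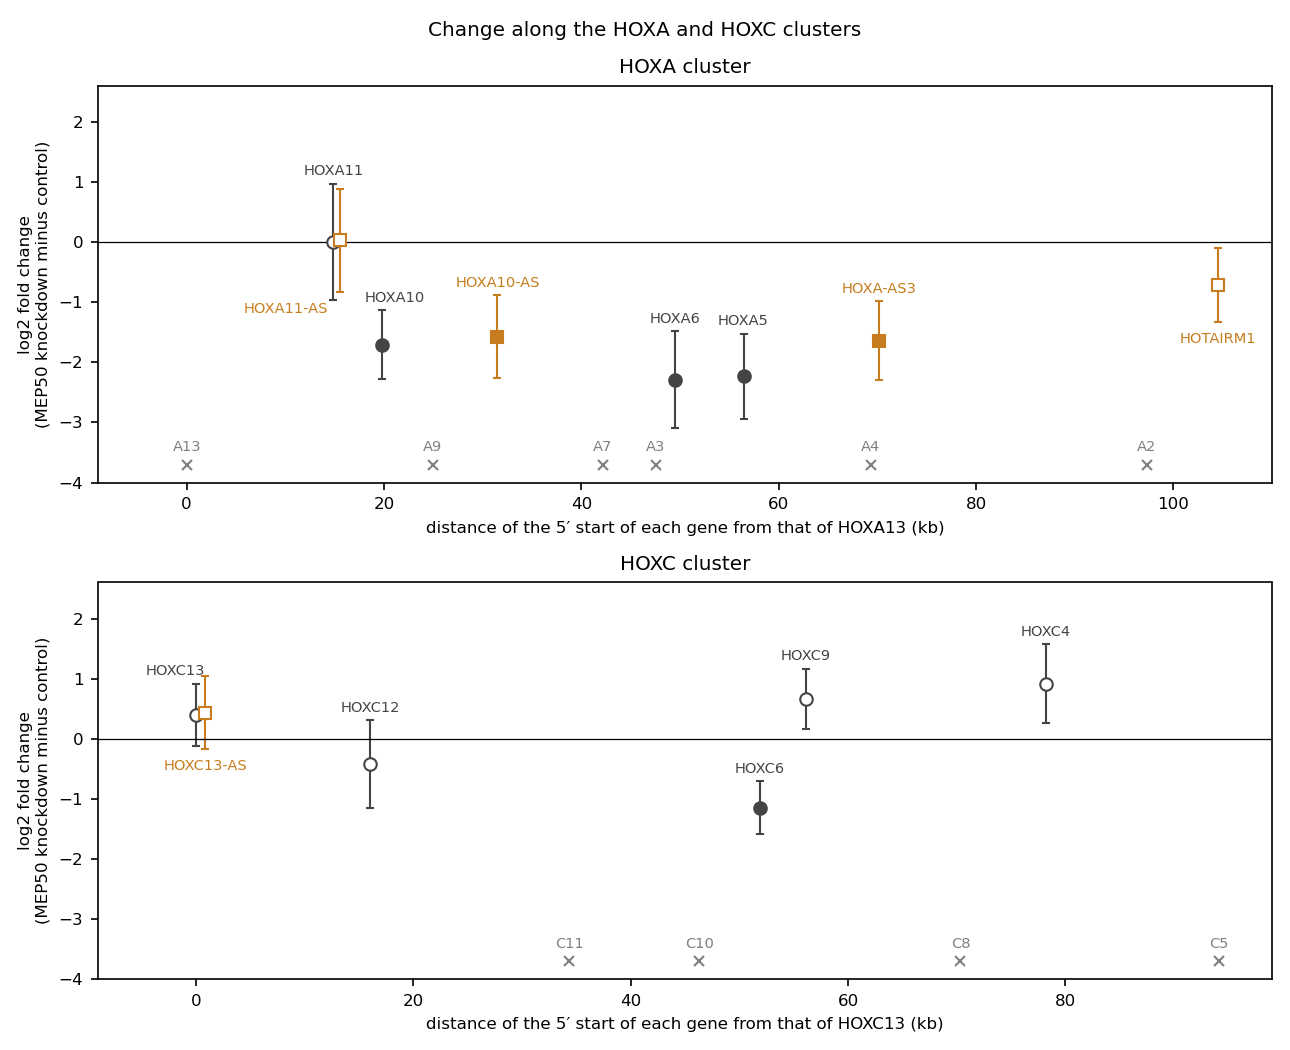
Log2 fold change, knockdown minus control, of tested genes along the HOXA and HOXC clusters, against the distance in kb of each gene's 5′ start in the deposited table from that of the paralog 13 gene. Circles are HOX genes, orange squares antisense and other noncoding RNAs, bars 95% intervals, and filled symbols have an adjusted p under 0.05. Grey crosses at the bottom mark HOX genes under the filter and carry no value. In HOXA the filled symbols stand from HOXA10 to HOXA-AS3, and in HOXC the filled symbol of HOXC6 stands between open ones on both sides.

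In HOXC, 1 gene fell and its nearest tested neighbours, HOXC9 and HOXC4, had positive values. HOXC6 (ENSG00000197757.7, chr12:53990624-54030823, plus strand), whose transcript is one of those measured in urine tests for prostate cancer, had 6.21, 5.11 and 6.18 CPM in the knockdown libraries, from 116, 189 and 135 reads. In control it had 15.5, 12.3 and 10.96 CPM, from 400, 369 and 384 reads. All control libraries were above all knockdown libraries. HOXC6 was 2.22-fold lower, with a log2 fold change of -1.15 (SE 0.20, interval -1.59 to -0.71, adjusted p 0.0112, edgeR), and log2 ratios by pair of -1.32, -1.27 and -0.83. Without knockdown replicate 2, the deepest knockdown library, its log2 fold change was -1.06 and its adjusted p 0.0589. That fit called 329 of 21588 tested genes lower, against 1029 of 21101 with all 6 libraries. Of its exon bases, 15.7% are shared with genes on the same strand, among them HOXC4 and HOXC9.

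HOXC9 (ENSG00000180806.4, chr12:53994895-54003337, plus strand), which sets the identity of spinal motor neurons in the mouse, had 4.23, 3.08 and 3.48 CPM in the knockdown libraries and 2.21, 2.23 and 2.31 CPM in the control libraries. The control libraries were almost level and all below the knockdown libraries. Its log2 fold change was 0.67 (interval 0.17 to 1.17), which missed the threshold without the block (adjusted p 0.101) and passed it with the block (0.0309, edgeR). HOXC4 (ENSG00000198353.7, chr12:54016931-54056030, plus strand) had 1.39, 1.00 and 1.145 CPM in knockdown and 0.582, 0.666 and 0.5995 CPM in control, from 26, 37 and 25 reads and from 15, 20 and 21 reads. Its groups did not overlap either. The log2 fold change was 0.92 (interval 0.26 to 1.57), with an adjusted p of 0.0891 without the block and 0.0498 with it (edgeR). HOXC4 shares 17.8% of its exon bases with genes on its own strand, HOXC6 among them.

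The posterior HOXC genes overlapped between the groups. HOXC13, which drives hair keratin genes, had 7.98, 5.11 and 6.59 CPM in knockdown and 4.11, 5.66 and 5.05 CPM in control, with a log2 fold change of 0.40 (interval -0.12 to 0.92, adjusted p 0.319, edgeR). HOXC12 had 2.09, 2.54 and 4.53 CPM in knockdown and 3.14, 5.06 and 4.02 CPM in control, with a log2 fold change of -0.42 (interval -1.15 to 0.31, adjusted p 0.459). HOXC13 was higher in 2 of 3 pairs and HOXC12 lower in 2 of 3. Under the filter, HOXC5 had 4, 17 and 6 reads in knockdown and 3, 17 and 3 in control. Other transcripts on its own strand share 59.9% of its exon bases. HOXC8 had at most 1 read in a library, and HOXC10 and HOXC11 had at most 2 and 9.

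The HOXC sum was 20.7 ± 2.88 CPM in knockdown and 25.2 ± 1.64 CPM in control, a log2 ratio of -0.29. Without HOXC6 it was 14.8 ± 2.25 CPM in knockdown and 12.3 ± 1.99 CPM in control, a log2 ratio of 0.27, and the groups overlapped. The sign of the cluster sum was thus set by HOXC6, which was set apart because it was called lower in these data.

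HOXB13, the dominant HOX transcript, had 361, 299 and 374 CPM in the knockdown libraries, from 6736, 11064 and 8156 reads, and 391, 465 and 485 CPM in the control libraries, from 10087, 13966 and 16979 reads. Every knockdown library was below every control library, but knockdown replicate 3 and control replicate 1 were close. HOXB13 was 1.3-fold lower, with a log2 fold change of -0.38 (SE 0.14, interval -0.70 to -0.06). Its adjusted p was 0.14 without the block and 0.033 with it (edgeR). By pair the log2 ratios were -0.12, -0.64 and -0.38, so the direction held in 3 of 3 pairs and the size differed. It shares no exon base with another gene, and its depth leaves little counting error.

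**Figure D4:**
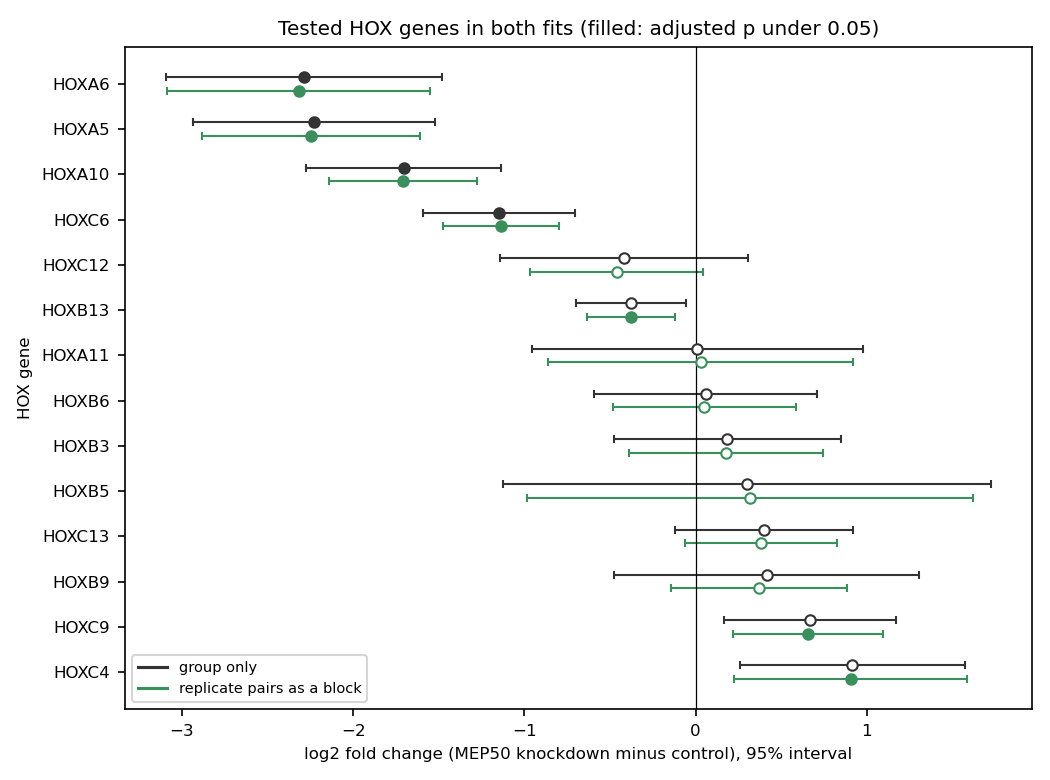
Log2 fold change, knockdown minus control, with its 95% interval for tested HOX genes in the fit on group only (dark) and the fit with the replicate pairs as a block (green), ordered by the fold change. Filled points have an adjusted p under 0.05 over all tested genes. HOXA6, HOXA5, HOXA10 and HOXC6 are filled in both fits, and HOXB13, HOXC9 and HOXC4 in the block fit alone.

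The other HOXB genes gave no call in either fit. HOXB9 had 1.23, 2.19 and 3.76 CPM in knockdown and 1.32, 1.76 and 2.28 CPM in control, with a log2 fold change of 0.41 (interval -0.48 to 1.31, adjusted p 0.559, edgeR), and its knockdown libraries spread widest. HOXB3, a hindbrain gene, had 1.98, 1.24 and 2.06 CPM in knockdown and 1.82, 1.499 and 1.28 CPM in control (log2 fold change 0.19, interval -0.48 to 0.85). HOXB6 had 1.34, 1.78 and 1.37 CPM in knockdown and 1.20, 1.90 and 1.26 CPM in control (0.06, interval -0.59 to 0.71). HOXB6 libraries of the same number lay close together, replicate 2 being highest in both groups. Other transcripts share 32.9% of the exon bases of HOXB6. HOXB5 had 7, 14 and 4 reads in knockdown and 1, 9 and 14 reads in control, with a log2 fold change of 0.30 and an interval of -1.12 to 1.72. All of these intervals took in 0.

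HOXB1, HOXB2, HOXB4, HOXB7 and HOXB8 had at most 5 reads in any library. HOXB2 was at 0 in all knockdown libraries and had 4, 3 and 0 reads in control. Summed, HOXB had 350.6 ± 40.3 CPM in knockdown and 452 ± 49.6 CPM in control, a log2 ratio of -0.37. Without HOXB13 the other 9 genes had 6.13 ± 1.32 CPM in knockdown and 5.26 ± 0.499 CPM in control, which differed by less than the SD in knockdown.

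HOXD was close to silent in the counts. HOXD4, HOXD9, HOXD11 and HOXD12 had no read in any library. For each this allows up to 0.0387 CPM over the knockdown libraries and 0.033 CPM over the control libraries (3 counts over the group, counting error only). Of the exon bases of HOXD4, 80.5% are shared with another transcript on its own strand, and 21.4% of those of HOXD11 with HOXD10. Reads on such bases cannot be told apart, so for HOXD4 and HOXD11 the limit covers only reads assigned to them. HOXD1 and HOXD3 share 57.4% and 73% of their exon bases with other transcripts. The 9 genes together had 2, 5 and 5 reads in the knockdown libraries and 1, 1 and 0 reads in the control libraries. HOXD8 had 1, 3 and 1 reads in knockdown and 0 in each control library, and HOXD1, HOXD3 and HOXD10 had at most 1 read in a library. None could be tested, and the reads are too few to give a fold.

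Noncoding RNAs of the HOX clusters were read next to the genes. Of 25 listed, 23 were in the table, 6 could be tested and 2 fell, both in HOXA, against 4.88% of all tested genes. HOXA-AS3, which runs antisense across HOXA3 to HOXA7, had 0.803, 0.784 and 0.458 CPM in the knockdown libraries and 2.06, 2.33 and 2.05 CPM in the control libraries, without overlap. Its log2 fold change was -1.64 (interval -2.30 to -0.98, adjusted p 0.0131, edgeR), and 39.3% of its exon bases lie opposite HOX genes or other transcripts. HOXA10-AS had 0.964, 0.811 and 0.595 CPM in knockdown and 2.99, 2.26 and 1.83 CPM in control, with a log2 fold change of -1.57 (adjusted p 0.019). Of its exon bases, 62.3% lie opposite HOXA10 and HOXA9, and without the strand setting reads on them cannot be told apart. HOXA10-AS no longer passed when knockdown replicate 2 (adjusted p 0.0786), knockdown replicate 3 (0.0675) or control replicate 1 (0.0593) was left out. Its log2 fold changes there were -1.60, -1.42 and -1.33. Over all tested genes, these fits called 329, 447 and 493 lower, against 1029 with all 6 libraries.

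The other tested noncoding RNAs gave no call. HOTAIRM1, at the anterior end of HOXA, had 0.750, 0.622 and 0.733 CPM in knockdown and 1.20, 1.13 and 1.08 CPM in control, without overlap, with a log2 fold change of -0.71 and an adjusted p of 0.149. Other transcripts share 44.9% of its exon bases. HOXA11-AS, HOXB-AS3 and HOXC13-AS had log2 fold changes of 0.03, -0.12 and 0.43. HOTTIP, a noncoding RNA of the HOXA13 end, had no read, and HOTAIR of the HOXC cluster had at most 0.0458 CPM in a library. The median of the 6 tested was -0.41.

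The cofactors and chromatin regulators that act with HOX genes were set beside them. Of 9 TALE cofactors (the PBX, MEIS and PKNOX genes) 7 were tested and none was called by edgeR without the block, with a median of -0.03, while 2 had an unadjusted p under 0.05, against 24.7% of all tested genes. With the block 1 rose and 1, MEIS1, fell, against 11.2% and 14.9% of all tested genes. MEIS1, which binds HOXB13 protein, had 2.36, 2.92 and 2.02 CPM in knockdown and 4.23, 3.66 and 3.71 CPM in control, with a log2 fold change of -0.66 (adjusted p 0.111, and 0.0307 with the block). Its groups did not overlap, and MEIS2 had no read.

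Among 11 activators of HOX chromatin, 1 fell, against 4.88% of all tested genes, with a median of -0.17. PSIP1, whose product LEDGF tethers menin and KMT2A to chromatin, had 65.4 ± 6.71 CPM in knockdown and 111 ± 18.1 CPM in control (log2 fold change -0.77, adjusted p 0.0203, edgeR), but it no longer passed when any library but knockdown replicate 1 or control replicate 2 was left out (adjusted p 0.0676 to 0.0887). The log2 fold change of PSIP1 was then -0.76 to -0.67. Those fits called 329 to 648 of all tested genes lower, against 1029 with all 6 libraries. The runner-up by p was ASH2L, a core subunit of the KMT2 complexes, at -0.53 (adjusted p 0.052). With the block 5 activators fell, MEN1, PSIP1, ASH2L, WDR5 and DPY30, against 14.9% of all tested genes. In that fit 1 rose, against 11.2% of all tested genes. It was KDM6B, which removes the polycomb mark (log2 fold change 0.91, adjusted p 0.0023, edgeR). KMT2A itself was not called, at 0.18.

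Of 16 repressors, 1 rose and 1 fell, against 2.72% and 4.88% of all tested genes, with a median of 0.07. EZH2, the enzyme that places the polycomb mark, had 37.5, 34.4 and 34.9 CPM in knockdown and 70.8, 56.7 and 56.6 CPM in control (log2 fold change -0.79, adjusted p 0.0123, edgeR). JARID2, an accessory subunit that guides the same complex, had 69.4, 61.6 and 75.0 CPM in knockdown and 32.5, 40.3 and 43.2 CPM in control (log2 fold change 0.83, adjusted p 0.0135). Both had groups far apart, in opposite directions. The call of EZH2 was lost without knockdown replicate 2 or 3 (adjusted p 0.0666 and 0.0526), and that of JARID2 without knockdown replicate 3 (0.0572). The log2 fold changes were then -0.76 and -0.77 for EZH2 and 0.76 for JARID2. Over all tested genes, the fit without knockdown replicate 2 called 329 lower. Without knockdown replicate 3, 447 were lower and 234 higher, against 1029 and 574 with all 6 libraries. With the block SUZ12, PCGF2 and CBX2 also fell, by 0.33, 0.46 and 0.49 on the log2 scale. That fit called 14.9% of all tested genes lower. EED and the other members were not called.

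**Figure D5:**
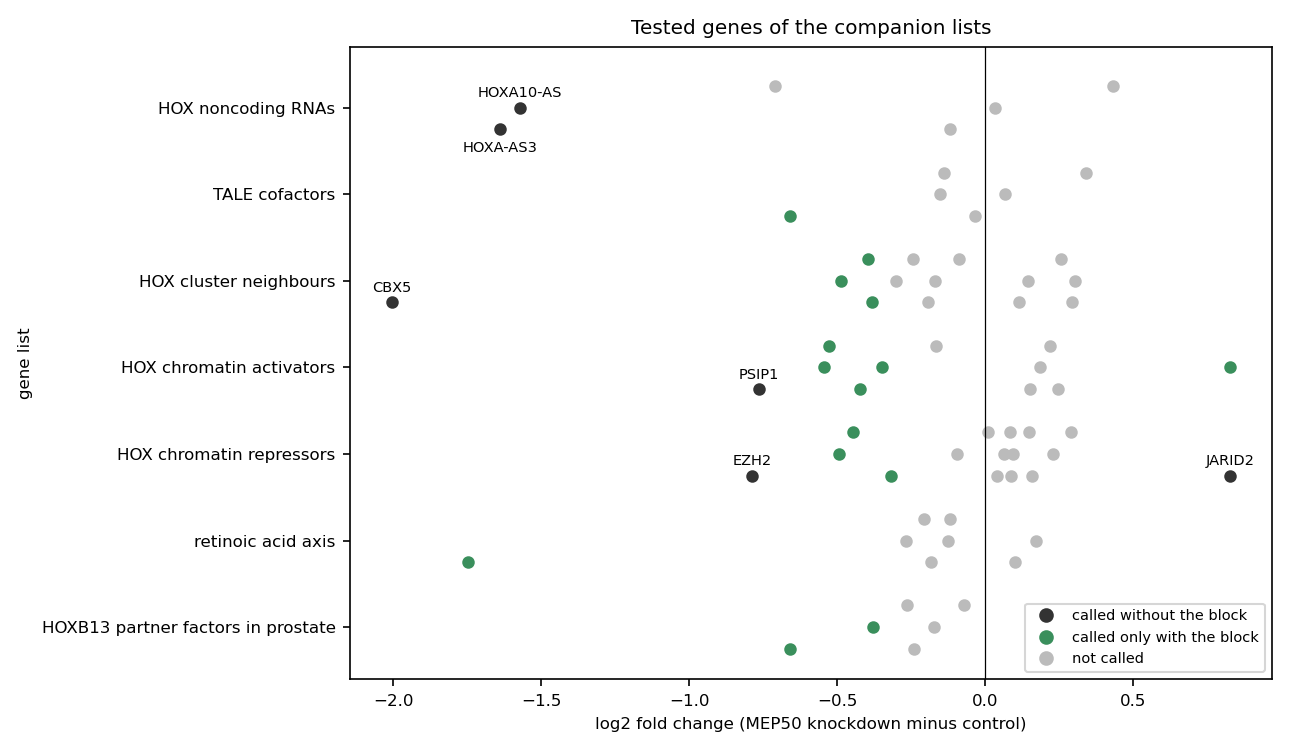
Log2 fold change, knockdown minus control, of tested genes in 7 lists of genes that lie in or next to the HOX clusters, act on them or work with HOX proteins. Dark points were called in the fit on group only, green points were called only with the replicate block, and grey points in neither. The named dark points include CBX5 at -2.01 and JARID2 at 0.83, and the list of HOXB13 partners lies wholly below 0.

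Genes that flank the clusters gave 1 call among 14 tested of 18 listed, a fall, against 4.88% of all tested genes called lower. Some lie far off. The 5′ starts of CBX5 and HNRNPA1 are 341 kb from that of HOXC13. That of ATP5MC3 is at -908 kb from HOXD13, with minus for the side away from the cluster. CBX5, which encodes the heterochromatin protein HP1 alpha and lies beyond the HOXC4 end of HOXC, had 114, 137 and 121 CPM in knockdown and 427, 584 and 485 CPM in control, with a log2 fold change of -2.01 (adjusted p 0.000646, edgeR). With the block 3 more fell, HNRNPA1, PRAC2 and ATP5MC3, each by less than 0.51 on the log2 scale, where 14.9% of all tested genes were called lower. The neighbours of HOXB13, PRAC1 and PRAC2, which are named for prostate, rectum and colon, did not share a sign. PRAC1 had 114, 93.9 and 101 CPM in knockdown and 91.5, 55.7 and 103 CPM in control (0.31, adjusted p 0.413), and PRAC2 had 22.5, 16.9 and 16.2 CPM in knockdown and 23.7, 26.3 and 27.8 CPM in control (-0.49, adjusted p 0.116, and 0.0227 with the block). Other transcripts share 41.7% of the exon bases of PRAC2. The median of the 14 was -0.18.

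Retinoic acid switches on anterior HOX genes, and its receptors and enzymes made a list of 16, of which 9 were tested. None was called without the block by edgeR, 1 had an unadjusted p under 0.05, against 24.7% of all tested genes, and the median was -0.13. That gene, DHRS3, a retinaldehyde reductase, had 0.803, 1.38 and 3.25 CPM in knockdown and 2.6, 5.10 and 10.4 CPM in control, with a log2 fold change of -1.75 (adjusted p 0.0986). Its groups overlapped, yet it was lower in every pair, and with the block its adjusted p was 3.79e-05.

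The partners of HOXB13 in prostate cells, 7 genes, had no call without the block by edgeR, while 2 had an unadjusted p under 0.05, against 24.7% of all tested genes. All 7 had negative values, with a median of -0.26. The pioneer factor FOXA1 was nearly level, at -0.07 (interval -0.33 to 0.19). NCOR1, a corepressor, was lower with the block at -0.37 (adjusted p 0.0177, against 0.11 without it, edgeR), as was MEIS1, which is also in the TALE list. The block fit called 14.9% of all tested genes lower. HOXB13 itself, at -0.38, lay within the range of these 7 values, from -0.66 to -0.07.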

How the data were processed

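The authors deposited whole-number read counts per gene for 6 libraries. Per the submitters' processing notes, reads were aligned with STAR 2.5 to hg38 and counted with featureCounts from Subread 1.6.5, and edgeR 3.20.8 was used. The strand setting of the counting and the annotation release are not given in the sources used here.

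From these counts, TMM-scaled CPM and edgeR 4.0.16 quasi-likelihood tests (R 4.3.3) were computed over 21101 genes that passed filterByExpr, with Benjamini-Hochberg adjustment over all of them and calls at an adjusted p under 0.05. A called gene is said to have risen or fallen. The fits were tested on simulated data. The members and gene lists were chosen with earlier results of these data known. Named with the value in every library were all HOX genes at 1 CPM or more and all called ones. Of each other list, the called genes or the 2 with the smallest p were named, some with a mean or log2 fold change only. A few of the genes so named are not reported here.

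Libraries with the same replicate number in their titles deviated together from their group means (r 0.554, 0.381 and 0.358, against -0.39 to 0.0602 for different numbers), so the numbers were taken to pair them. The biological coefficient of variation was 20.8% on group only, with 4 residual degrees of freedom, and 11.9% with the block, with 2. DESeq2 1.42.0, limma-voom (limma 3.58.1), other scalings, filters, depths and left-out libraries were alternatives. Of the 39 gene identifiers, 33 were in GENCODE 29, all with the same coordinates.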

Additional observations from a re-analysis of the deposited data

How the results depend on the processing

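HOXA5, HOXA6 and HOXA10 were called lower in 14 of 14 alternatives (other scalings, filters, tools and depth, the replicate block, and each library left out), with log2 fold changes of -2.60 to -2.09, -2.60 to -2.06 and -1.88 to -1.54 and adjusted p of at most 0.0217, 0.0484 and 0.0375. HOXC6 was called in 13 of 14 and missed the threshold when knockdown replicate 2 was left out (-1.06, adjusted p 0.0589). The replicate block gave 2 higher HOX genes in place of 0, HOXC4 (adjusted p 0.0498) and HOXC9 (0.0309), and called HOXB13 lower, at -0.38 (0.033). It also moved the calls over all genes to 2358 higher and 3148 lower, against 574 and 1029 on group only. The cause of these shifts was not tested. HOXB13 was called in 1 of 14 alternatives, with values of -0.44 to -0.28. With 1 library left out, 3 to 4 of 15 to 16 tested HOX genes fell and 0 rose. Over all genes, those fits called 329 to 923 lower and 168 to 500 higher, of 21565 to 22191 tested. The log2 ratios of the cluster sums with 1 library left out were -1.48 to -1.24 for HOXA, -0.45 to -0.28 for HOXB and -0.35 to -0.18 for HOXC.

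Signs turned only in genes that no fit called. HOXA11 was -0.048 by limma-voom and -0.25 to 0.32 with 1 library left out, HOXB6 -0.10 to 0.28, HOXB9 -0.046 to 0.70 and HOXB5 -0.11 to 0.83. The number of expressed genes was 13 at 0.5 CPM, 7 at 2 CPM and 5 at 1 CPM per kilobase, against 11 at 1 CPM. Scaling by library totals alone moved the median of all genes by 0.0888. HOXA11 and HOXB5 gave no value where they did not pass a filter. The alternatives for the called genes of the other lists were chosen after seeing the data. Under them CBX5, WDR77 and HOXA-AS3 were called in 14 of 14. Depth limits the HOX genes other than HOXB13, most of which had under 100 reads in a library.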
